A study of Mus musculus with 15 samples.

Results

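Ferroportin, encoded by Slc40a1, and 9 other genes that import, store, export or sense iron were followed through the RNA-seq libraries of whole mouse pituitary glands. They were the 10 rows, of 55523 in the count table, whose symbol was Slc40a1, Heph, Cp, Trf, Tfrc, Slc11a2, Fth1, Ftl1, Aco1 or Ireb2, and each symbol was held by 1 row only. All 10 passed the filter on low counts in every comparison. Slc40a1 was chosen by a measured value, taken here to be its lower level in PE−/− than in PE+/− males, since the contrast behind the choice was not stated. The change with genotype in males is therefore given for all members as a description, with no test. The other members are known iron genes and are used to place Slc40a1 among its partners.

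The mice carried a genome-edited deletion of the pituitary enhancer (PE) in the sixth intron of Nr5a1, which encodes a nuclear receptor made in gonadotropes, the pituitary cells that secrete LH and FSH. The controls (PE+/−, heterozygous deletion) also lacked the enhancer on one chromosome, and the PE−/− mice (homozygous deletion) lacked it on both. Of the 15 libraries, 8 were male (4 PE+/−, 4 PE−/−) and 7 female (4 PE+/−, 3 PE−/−), with 12982794 to 30238443 estimated counts per library. Ages were not given in the labels, and nothing there says whether a library came from 1 animal, so the p-values measure the spread between these samples. Nr5a1 was at 34.8 to 80.2 CPM (counts per 1000000 counts of the library) in the PE+/− males, 33.7 to 45.4 CPM in the PE+/− females, and no more than 0.897 CPM in any PE−/− library, as the labels state. Gh and Pomc, hormone genes of the anterior and intermediate lobes, were detected in every group.

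Iron circulates bound to transferrin (Trf) and enters cells when the transferrin receptor (Tfrc) is internalized, after which the transporter DMT1 (Slc11a2) moves it out of the endosome. Inside the cell it is stored in ferritin, a shell of heavy (Fth1) and light (Ftl1) chains. Ferroportin is the known iron exporter of mammalian cells, and the copper ferroxidases hephaestin (Heph) and ceruloplasmin (Cp) oxidize the iron that leaves. The iron regulatory proteins IRP1 (Aco1) and IRP2 (Ireb2) bind a stem-loop of the mRNA, the iron-responsive element, when iron is low. In a 5′ UTR the bound protein blocks translation, and in a 3′ UTR it protects the mRNA from decay.

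The stem-loop is shown here because it is the known binding site of the proteins of 2 members, Aco1 and Ireb2, and was found in 4 of the 10, and because only its 3′ UTR form is known to act on the mRNA level that RNA-seq measures. GENCODE M21 transcripts (mm10) were searched in the sense direction for a C, 5 bases, the loop CAGTGN, and 5 bases that pair with the first 5 (G-T pairs allowed), 17 bases in all. The capitals mark the loop of 6 bases.
Slc40a1, 5′ UTR, chr1:45925465-45925494, minus strand: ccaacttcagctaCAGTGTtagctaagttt
Fth1, 5′ UTR, chr19:9982731-9982760, plus strand: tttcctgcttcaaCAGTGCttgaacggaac
Ftl1, 5′ UTR, chr7:45459779-45459808, minus strand: tgtcttgcttcaaCAGTGTttgaacggaac
Tfrc, 3′ UTR, chr16:32631218-32631247, plus strand: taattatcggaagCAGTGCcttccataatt
Tfrc, 3′ UTR, chr16:32631597-32631626, plus strand: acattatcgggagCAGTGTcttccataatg
Tfrc, 3′ UTR, chr16:32631662-32631691, plus strand: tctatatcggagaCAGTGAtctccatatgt
Tfrc, 3′ UTR, chr16:32631709-32631738, plus strand: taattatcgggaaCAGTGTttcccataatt
The motif was in a 5′ UTR of 28 of 20504 genes (0.137%) and of 3 of the 10 members, and in a 3′ UTR of 127 of 20867 genes (0.609%) and of 1 member. A match describes the letters and was not tested for binding. In the other members, Slc11a2 included, these letters were not found in the UTRs searched. The search took only stems of 5 unbroken pairs. A stem-loop of another shape would be missed, so the lack of a match does not show that a gene has no such element.

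Levels were compared between genes only per length, as CPM per kilobase of annotated exon. Ferritin stood far above the rest, with group means of 614 to 901 CPM per kilobase for Ftl1 and 153 to 212 for Fth1. Ireb2 followed at 5.06 to 5.67, then Aco1 at 2.97 to 4.01, Tfrc at 2.80 to 3.51, Slc40a1 at 1.36 to 4.24 and Slc11a2 at 1.58 to 2.53. Cp was at 0.623 to 1.03, Trf at 0.286 to 1.38 and Heph at 0.261 to 0.414. As a description, the mean of Slc40a1 was above that of Slc11a2 in both PE+/− groups and below it in both PE−/− groups. The PE−/− means were 1.51 against 1.84 in males (SD 0.111 and 0.432) and 1.36 against 1.58 in females (SD 0.136 and 0.408). These gaps are within the SD of Slc11a2, and the male values chose Slc40a1, so nothing is read from this order. The range of Slc40a1 overlapped those of Aco1, Tfrc, Slc11a2 and Trf, Aco1 overlapped Tfrc, and Trf overlapped Cp and Heph. The light chain was above the heavy chain per length in every library, with a ratio from 2.44 to 8.07. That ratio depends on the annotated exon lengths, 1340 bases for Ftl1 and 3469 for Fth1. Without the lengths the ratio of their CPM ran from 0.941, in a PE+/− male, to 3.12, in a PE−/− male.

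**Figure D1:**
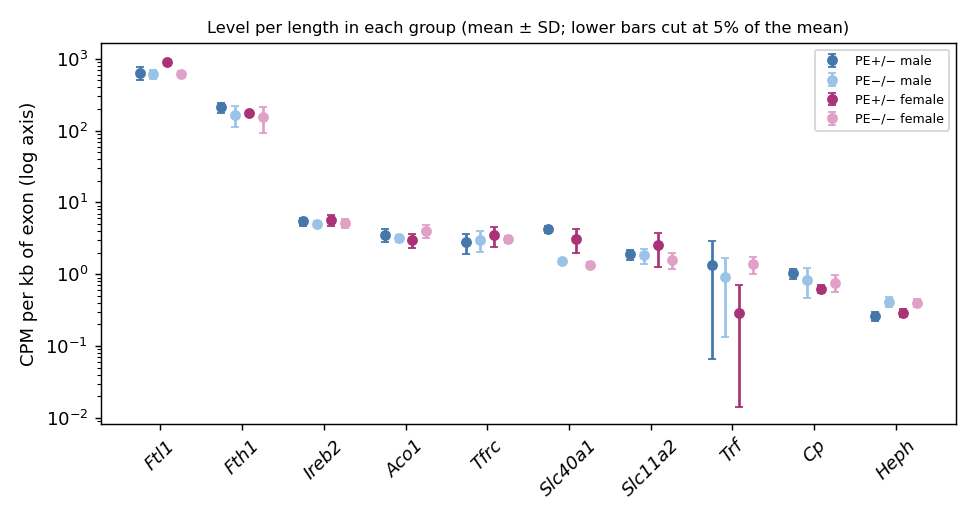
Level of each of the 10 genes in CPM per kilobase of exon on a log axis, with points for the group means and bars for the SD (n = 4, and 3 for PE−/− females). Ftl1 and Fth1 lie at 153 to 901 CPM per kilobase and all other genes under 6.

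Slc40a1 (MSTRG.366 in the files, chromosome 1, 45908068 to 45926523, minus strand) was lower in PE−/− than in PE+/− libraries of both sexes. It had 37.7, 42.6, 39.2 and 33.2 CPM in the PE+/− males and 12.997, 13.5, 12.8 and 15.02 CPM in the PE−/− males. In females it had 23.8, 29.7, 17.1 and 40.8 CPM in PE+/− and 11.4, 11.7 and 13.6 CPM in PE−/−. Each of the 7 PE−/− libraries was therefore under each of the 8 PE+/− libraries, an order that 0.287% of the 17074 genes tested in both sexes also showed. The male libraries in this order chose the gene, so nothing is read from it.

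As a description, the mean of Slc40a1 in PE−/− males was 35.6% of that in PE+/− males (13.6 ± 0.997 against 38.2 ± 3.90 CPM, SD, n = 4 each). On the log2 scale this is −1.49 with a standard error (SE) of 0.13. Leaving out single male libraries moved it between −1.55 and −1.44. The females were taken not to have entered the choice, and their test is independent of it only if that holds. There the mean was 43.9% of the control (12.2 ± 1.22 CPM, n = 3, against 27.8 ± 10.04 CPM, n = 4), or −1.19 (SE 0.30) on the log2 scale. Adjusted over all genes it missed the threshold of 0.05 in edgeR's quasi-likelihood test (adjusted p = 0.108, unadjusted p = 0.00442). The PE+/− females had a coefficient of variation of 36.1%, against 10.2% in PE+/− males and 10.02% in PE−/− females. The call rested on how the spread was estimated, since the female change passed in DESeq2 (adjusted p = 0.0071) and in edgeR's likelihood ratio test (0.0315). In fits without a single female library it ran from −1.37 to −0.96 and did not pass in any of them.

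Between the sexes, Slc40a1 in PE+/− females was at 72.9% of the level in PE+/− males and in PE−/− females at 89.9% of that in PE−/− males, and the groups overlapped in both. The log2 changes of the sexes differed by 0.30 (SE 0.31). None of these 3 values was tested, since the male libraries chose the gene. In whole glands, fewer cells of a type and less RNA per cell cannot be told apart.

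Cell type markers differed in whether they moved with Slc40a1, and their part in its change was not tested. Of 5 gonadotrope markers, 3 fell in each sex (edgeR adjusted p under the threshold), namely Nr5a1, Lhb and Gnrhr. Nr5a1 is the gene whose enhancer was deleted, so its fall was set by the design. Over all genes 1.05% passed in females and 0.132% in males. Fshb did not pass, at 9.86% of the control in females (edgeR adjusted p = 0.125) and 2.68% in males (edgeR adjusted p = 0.0506). Cga overlapped between genotypes in both sexes. Prl, the hormone gene of lactotropes, also fell in females, from 21965 to 35113 CPM in PE+/− to 4459 to 5603 CPM in PE−/− (log2 difference −2.58, edgeR adjusted p = 0.00698), and ran from 12285 to 31182 CPM in PE+/− and 4753 to 41223 CPM in PE−/− males. Drd2 and Agtr1a, also lactotrope markers, went the other way in females (log2 fold changes 0.21 and 0.66). In males these were 0.42 and −0.98, and neither gene passed in either sex. No marker of somatotropes, corticotropes and melanotropes, thyrotropes, stem or folliculostellate cells, the posterior lobe, endothelium or oligodendrocytes passed in either sex. Estimates were below 0 for 4 of 5 endothelial markers in females and 5 of 5 in males. They were above 0 for 5 of 5 corticotrope and melanotrope markers in females and 4 of 5 in males. The same held for 3 of 4 tested stem or folliculostellate markers in each sex. For thyrotropes 3 of 3 were above 0 in females and 0 of 3 in males, and for somatotropes 2 of 2 and 0 of 2. The summed level of 9 macrophage markers, a cell type known for ferroportin, ran from 149 to 188 CPM in PE+/− and 140 to 176 CPM in PE−/− males, and from 141 to 199 CPM in PE+/− and 136 to 155 CPM in PE−/− females, with none of them past the threshold. The 7 erythroid markers, which mark blood left in the gland, summed to 499 to 1263 CPM in PE+/− and 205 to 896 CPM in PE−/− males, and to 572 to 1348 CPM in PE+/− and 384 to 791 CPM in PE−/− females. None of the erythroid markers passed the threshold, while the estimates were below 0 for 6 of the 6 tested in females (median log2 fold change −0.90) and 5 of the 5 tested in males (median −0.89). Slc4a1 was at 0 in every PE−/− library and at no more than 1.52 CPM in any PE+/− library. It was too low to be tested in any comparison, so nothing is read from its zeros. The groups of each sex overlapped for both lists.

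Heph (MSTRG.26952, chromosome X, 96455359 to 96574485), the membrane-bound ferroxidase, had higher values in PE−/− than in PE+/− libraries. It had 1.90, 1.81, 1.83 and 2.46 CPM in the PE+/− males and 2.63, 3.52, 3.70 and 2.85 CPM in the PE−/− males. In females it had 2.03, 2.01, 2.56 and 2.32 CPM in PE+/− and 2.90, 2.82 and 3.50 CPM in PE−/−. All PE−/− libraries were above all PE+/− libraries, an order found in 0.527% of the genes tested in both sexes. The log2 fold change was 0.67 (SE 0.23) in males, given with no test, and 0.45 (SE 0.24) in females, short of the threshold (edgeR adjusted p = 0.406). The counts behind these values were 26 to 92 per library, where about 4 counts stood for 1 fragment.

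Cp (MSTRG.14833, chromosome 3, 19957054 to 20009145), the ferroxidase best known from plasma, had its clearest separation between the sexes of the controls. It had 7.96, 10.8, 9.09 and 11.4 CPM in PE+/− males and 6.88, 5.86, 5.99 and 5.13 CPM in PE+/− females. The groups did not overlap (4.43% of genes were lower in this way), and the female level was 60.8% of the male level (log2 difference −0.71, SE 0.19, edgeR adjusted p = 0.146). Only DESeq2 called it (adjusted p = 0.0106). In the PE−/− groups Cp ran from 5.32 to 13.03 CPM in males and 6.19 to 9.51 CPM in females, and these overlapped (−0.13, SE 0.35, edgeR adjusted p = 0.997). Its log2 fold change with genotype was −0.29 (SE 0.30) in males, with no test, and 0.29 (SE 0.23, edgeR adjusted p = 0.614) in females. Cp overlaps Hps3 on the opposite strand, and the counting may not separate them.

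**Figure D2:**
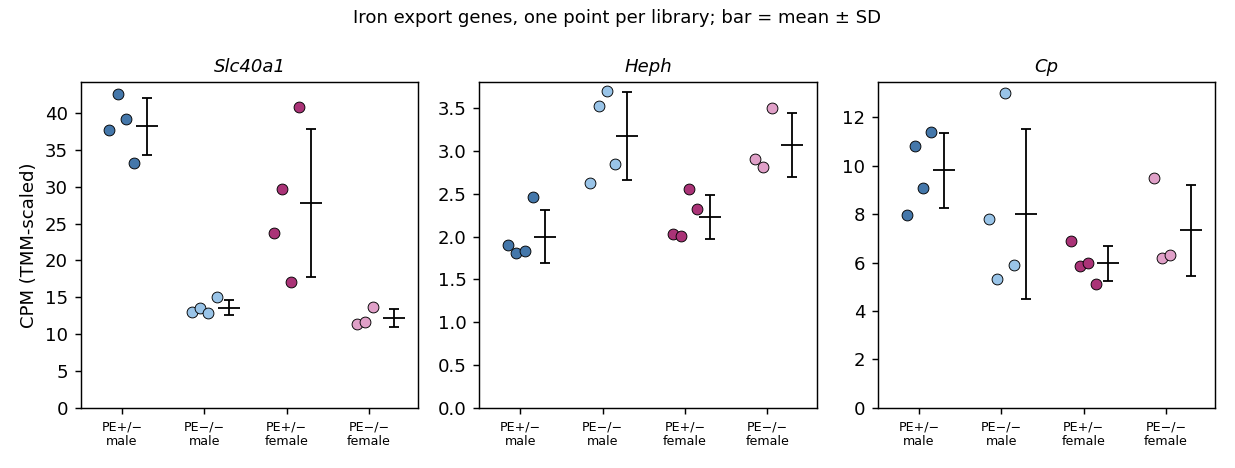
CPM of Slc40a1, Heph and Cp in each library by group, with the mean and SD beside the points. Slc40a1 is at 11.4 to 15.02 CPM in the 7 PE−/− libraries and 17.1 to 42.6 CPM in the 8 PE+/− libraries, Heph lies higher in PE−/− than in PE+/−, and Cp overlaps between genotypes.

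Ftl1 (MSTRG.22074, chromosome 7, 45457944 to 45459884, minus strand), the ferritin light chain, was highest in the PE+/− females. They had 1179, 1278, 1149 and 1225 CPM, and the PE−/− females had 859, 881 and 753 CPM. The PE+/− males had 736, 858, 1092 and 721 CPM and the PE−/− males 639, 925, 851 and 877 CPM. No library outside the PE+/− females reached their lowest value, and 5.33% of genes stood apart in this direction between PE+/− females and males. In females the PE−/− mean was 68.8% of the control (log2 fold change −0.55, SE 0.11, edgeR adjusted p = 0.079, unadjusted p = 0.00175), so Ftl1 did not pass over all genes, and it passed in DESeq2 only (adjusted p = 0.000202). Against the PE+/− males, the PE+/− females were at 142% (log2 fold change 0.51, SE 0.15, edgeR adjusted p = 0.198). These comparisons share the PE+/− females and are not independent of each other. In males the change was −0.05 (SE 0.17), with no test, and between PE−/− females and males 0.016 (SE 0.15, edgeR adjusted p = 0.998).

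Ftl1 has near-identical copies in the genome and a small RNA gene, Gm22133, within it, and the table gave these rows counts of their own. Gm22133 held group means of 384 to 551 CPM, Ftl1-ps1 held 114 to 158 and Ftl2-ps held 66.02 to 92.7, each with its highest mean in the PE+/− females. With these rows, Ftl1-ps2 and the overlapping Gm10252 added to Ftl1, the female change with genotype was −0.53 (edgeR adjusted p = 0.0923) and the difference between PE+/− females and males 0.36 (edgeR adjusted p = 0.238).

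Fth1 (MSTRG.12309, chromosome 19, 9980598 to 9985098), the heavy chain that oxidizes iron as it is stored, did not separate any of the groups. It ran from 566 to 840 CPM in PE+/− males, 297 to 715 CPM in PE−/− males, 563 to 655 CPM in PE+/− females and 304 to 701 CPM in PE−/− females. PE−/− male replicate 2 (297 CPM) and PE−/− female replicate 3 (304 CPM) were the lowest, and the other 13 libraries were at 563 CPM or more. The log2 fold change with genotype was −0.35 (SE 0.27) in males, with no test, and −0.19 (SE 0.27, edgeR adjusted p = 0.812) in females, where ± 2 SE spans −0.72 to 0.35. Without PE−/− female replicate 3 the female value was 0.096.

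The import genes overlapped between genotypes in both sexes, apart from Trf in females. Tfrc (MSTRG.9642, chromosome 16, 32608920 to 32632794), whose 4 matches of the stem-loop are printed above, ran from 9.30 to 20.6 CPM in PE+/− males, 13.4 to 27.5 CPM in PE−/− males, 14.2 to 29.6 CPM in PE+/− females and 17.5 to 21.6 CPM in PE−/− females. Its log2 fold change with genotype was 0.11 (SE 0.31) in males, with no test, and −0.20 (SE 0.26, edgeR adjusted p = 0.789) in females, with ± 2 SE from −0.73 to 0.32. Slc11a2 (MSTRG.9171, chromosome 15, 100387898 to 100425072) had group means of 12.05 and 11.7 CPM in PE+/− and PE−/− males. In females they were 16.1 and 10.01 CPM, with a log2 difference of −0.70 (SE 0.40, adjusted p = 0.458 by edgeR). PE+/− female replicate 2, at 27.1 CPM, was the highest library of this gene, and the other 14 lay between 8.17 and 16.1 CPM. Without it the female value was −0.32 (edgeR adjusted p = 0.741).

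Trf (MSTRG.26056, chromosome 9, 103204001 to 103230444), the plasma carrier of iron, was estimated unevenly. It had 0, 220, 2 and 114 counts in PE+/− males and 44, 99, 132 and 0 counts in PE−/− males. In females it had 0, 70, 16 and 0 counts in PE+/− and 76, 105 and 132 counts in PE−/−. A library at 0 allows up to 12 counts (3 fragments), which is 0.683 to 0.938 CPM in the 4 libraries concerned. The female groups did not overlap (means of 0.951 ± 1.38 and 4.57 ± 1.27 CPM), yet the difference did not pass the threshold (log2 fold change 2.18, SE 1.20, edgeR adjusted p = 0.433). The assembled locus of Trf also holds Srprb, its neighbour, whose row had 3548 to 7622 counts per library.

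**Figure D3:**
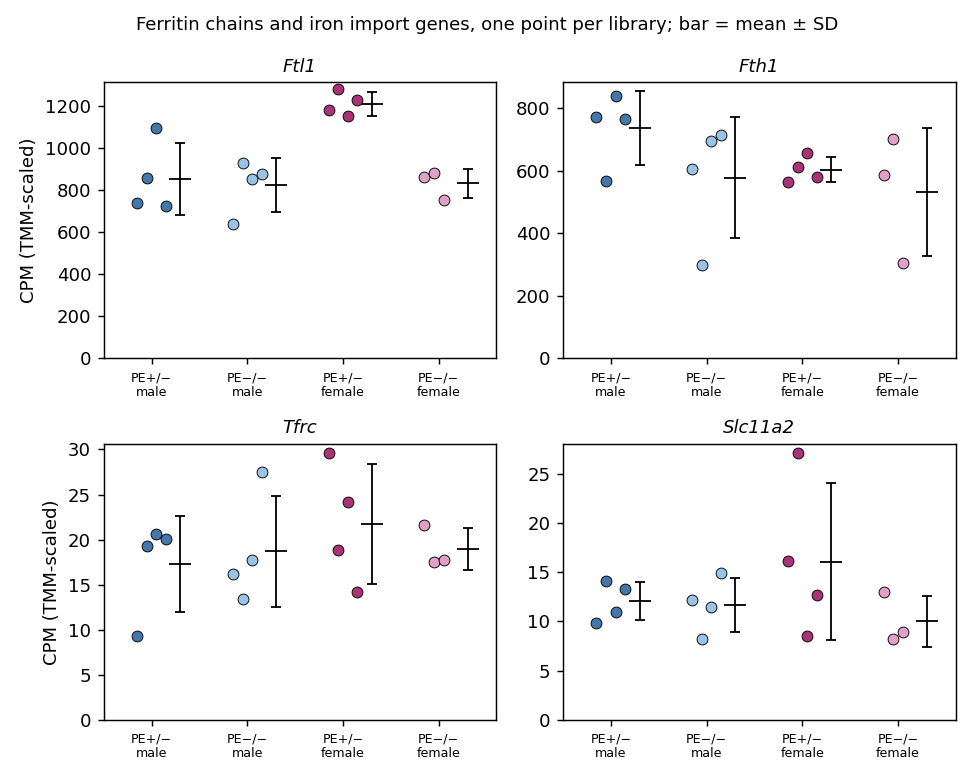
CPM of Ftl1, Fth1, Tfrc and Slc11a2 in each library by group, with the mean and SD beside the points. Ftl1 is at 1149 to 1278 CPM in the PE+/− females and at 639 to 1092 CPM elsewhere, while the groups overlap for the other 3 genes.

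The genes of the iron regulatory proteins did not separate the groups. Ireb2 (MSTRG.25477, chromosome 9, 54863789 to 54912530) had group means of 51.7 ± 6.53, 47.9 ± 5.08, 53.7 ± 9.18 and 49.1 ± 6.80 CPM in PE+/− males, PE−/− males, PE+/− females and PE−/− females (SD, n = 4, 4, 4 and 3). Its log2 fold change with genotype was −0.11 (SE 0.14) in males, with no test, and −0.14 (SE 0.18, edgeR adjusted p = 0.788) in females, where ± 2 SE spans −0.50 to 0.22. Aco1 (MSTRG.16503, chromosome 4, 40143081 to 40198338) had means of 15.9 ± 3.21, 14.4 ± 1.63, 13.4 ± 2.87 and 18.0 ± 3.78 CPM in the same order. Its log2 fold change was −0.15 (SE 0.18) in males, with no test, and 0.42 (SE 0.23, edgeR adjusted p = 0.423) in females. For the females ± 2 SE spans −0.03 to 0.87. Both genes overlapped between the groups in every comparison.

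In females, then, 0 of the 10 members passed the threshold in edgeR's quasi-likelihood test, against 1.05% of 18085 genes, and Slc40a1 and Ftl1 had an unadjusted p under 0.05 (16.1% of genes). DESeq2 called those 2 genes (7.95% of all genes) and edgeR's likelihood ratio test called Slc40a1 (3.93%). The median log2 fold change of the members was −0.16, and that of all genes 0.002. The groups did not overlap for 4 of the 10, 2 higher (Heph and Trf, 9.64% of all genes) and 2 lower (Slc40a1 and Ftl1, 8.95%), against 18.6% of all genes tested in either direction. In males 1 of 10, Slc40a1 itself, was past the threshold, where 0.132% of 17392 genes were, and the groups did not overlap for Slc40a1 and Heph (4.56% of genes). From the male counts nothing is read. Of the 9 members other than Slc40a1, 0 passed between PE+/− females and males in edgeR (0.67% of 17163 genes), with 2 at an unadjusted p under 0.05 (Cp and Ftl1, 13.5% of genes) and 1 called by DESeq2 (5.26% of genes). Between PE−/− females and males 0 passed in edgeR and in DESeq2, with 0 at an unadjusted p under 0.05 (0.0494% of 18217 genes passed in edgeR, 0.227% in DESeq2, and 3.37% were under 0.05 unadjusted). On simulated data the quasi-likelihood test recovered 1.08% of 93 genes changed by 1 on the log2 scale in the female design and 45.3% of 95 changed by 2. These genes were drawn at random over all levels and all others were left unchanged. The shares therefore do not give the power for any 1 member.

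**Figure D4:**
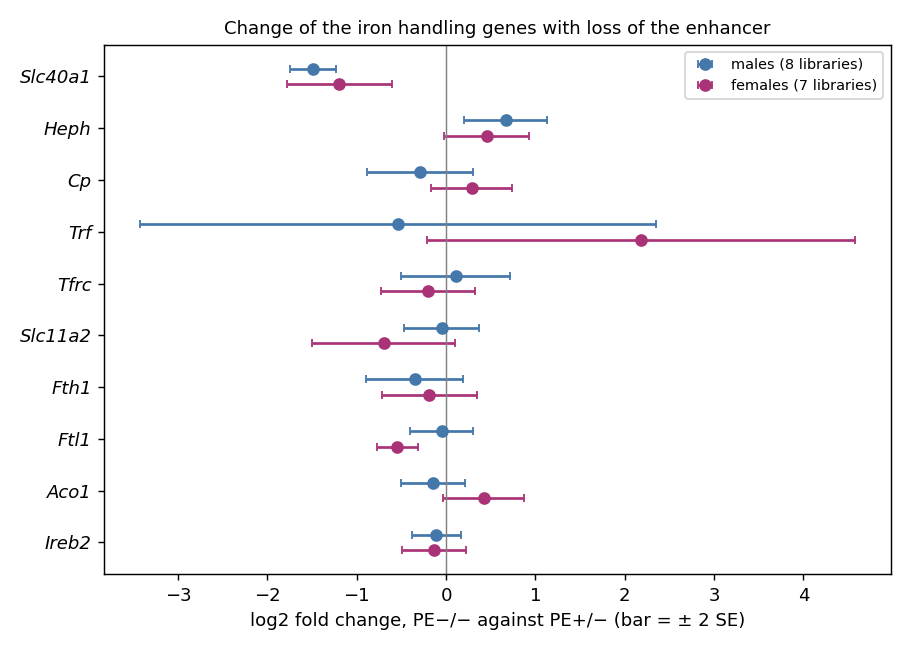
Log2 fold change of PE−/− against PE+/− for the 10 genes in males and in females, with bars of ± 2 SE. Slc40a1 lies at −1.49 in males and −1.19 in females, Ftl1 is at −0.55 in females and −0.05 in males, and the bars of Trf are the widest.

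The wider iron pathway was read from a list of 91 further genes, of which 85 were tested in each genotype comparison. By edgeR 0 passed in females and 0 in males, with 10 and 9 at an unadjusted p under 0.05 (16.1% and 6.14% of all genes), and DESeq2 called 5 and 2, beside 7.95% and 1.22% of all genes. The median log2 fold changes were 0.041 in females and 0.017 in males, beside 0.002 and 0.003 over all genes. The groups did not overlap for 13 list genes in females (12 higher and 1 lower) and for 6 in males (3 higher and 3 lower), where 18.6% and 4.56% of all genes did so (9.64% higher and 8.95% lower in females, 2.54% and 2.02% in males). None passed among 12 tested genes of uptake and reduction in females, 10 of hepcidin and its control, 7 of storage and its turnover, 25 of mitochondrial iron and iron-sulfur clusters, 22 of heme and 9 transcription factors. In the comparison of the sexes 0 of 84 passed in PE+/− and 0 of 86 in PE−/− by edgeR (0.67% and 0.0494% of all genes). There 7 and 0 were at an unadjusted p under 0.05 (13.5% and 3.37% of all genes). DESeq2 called 2 (Steap2 and Cybrd1) and 0, beside 5.26% and 0.227% of all genes.

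A few of these genes are named after their values were seen, since other tests called them. Steap3, the endosomal ferrireductase that prepares iron for DMT1, had 69.1 to 123 CPM in PE+/− and 23.0 to 60.7 CPM in PE−/− males. In females it had 49.01 to 148 CPM in PE+/− and 39.4 to 53.4 CPM in PE−/−. Its log2 fold change was −1.29 in males (SE 0.30, edgeR adjusted p = 0.310) and −1.31 in females (SE 0.37, edgeR adjusted p = 0.14), and DESeq2 called both. Hfe, a partner of the transferrin receptors in iron sensing, was higher in each PE−/− library than in each PE+/− library, an order found in 0.527% of the genes tested in both sexes. It had 42.2 to 57.03 against 58.05 to 72.9 CPM in males (log2 difference 0.39, SE 0.14, edgeR adjusted p = 0.685) and 30.5 to 48.8 against 59.4 to 74.9 CPM in females (log2 difference 0.95, SE 0.21, edgeR adjusted p = 0.0894), and DESeq2 called the female change.

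Lcn2, a siderophore-binding protein also used here as a marker of stem or folliculostellate cells, did not overlap between genotypes in either sex. Of all genes, 8.95% in females and 2.02% in males were lower in this way. The other 3 tested markers of stem or folliculostellate cells, Aldh1a2, Sox2 and S100b, had log2 fold changes from 0.19 to 0.77, and none passed the threshold. Lcn2 had 2.52 to 7.19 CPM in PE+/− and 0.728 to 1.59 CPM in PE−/− males (log2 fold change −1.66, SE 0.43, edgeR adjusted p = 0.391). In females it had 1.10 to 5.44 against 0.309 to 0.988 CPM (−2.38, SE 0.74, edgeR adjusted p = 0.174). The PE−/− females had only 16, 10 and 9 counts, around the floor of 12 counts, so the size of the female change is uncertain. DESeq2 called the Lcn2 change in both sexes. Steap2, another metalloreductase, was at 37.2% in PE+/− females of its level in PE+/− males (16.3 against 43.7 CPM, log2 difference −1.43, SE 0.27, edgeR adjusted p = 0.0674). With genotype it was 0.81 higher on the log2 scale in PE−/− than in PE+/− females (SE 0.22, edgeR adjusted p = 0.131), and DESeq2 called both differences. Hmox2, the constitutive heme oxygenase, was split between libraries of 2.32 to 18.04 CPM and of 85.0 to 105 CPM that cut across the groups, so its DESeq2 call in females (log2 fold change 3.11) is uncertain.

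The genes whose pattern was most like that of Slc40a1 were ranked by Pearson's r of log2 CPM over the 15 libraries, among 16044 genes. They were Rasgrf1 (r = 0.92), Sult5a1 (0.911), Fshb (0.904), Fam196a (0.889), Slurp2 (0.888), Foxp2 (0.885), Nr5a1 (0.884), Nr0b1 (0.883), Mfap3l (0.877) and Gnrhr (0.875). All of them had lower means in PE−/− than in PE+/− libraries of both sexes, and r is a description that this shared split sets in large part. After the group means were taken out, the same genes had r from −0.173 (Gnrhr) to 0.746 (Slurp2). Among the members, r over the 15 libraries, with the group means left in, was −0.839 for Heph with Slc40a1. The others lay between −0.356 (Trf) and 0.364 (Slc11a2). Heph and Slc40a1 split by genotype in opposite directions, which sets the r of Heph in large part. The male libraries also chose Slc40a1, so nothing is read from it. Fshb itself went from 2705 to 72.5 CPM in males and from 652 to 64.3 CPM in females.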

How the data were processed

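RNA-seq of whole pituitaries covered 15 libraries. According to the methods, paired-end reads went through cutadapt, STAR (mm10) and featureCounts. The deposited table held estimated counts per gene, as whole numbers and not normalized. Its row names were those of an assembly, which the methods leave unmentioned. In low values 5 was 1.52 times as frequent as its neighbours, so about 4 counts stood for 1 fragment. Both strands may be counted alike, which leaves overlapping genes and near-identical copies uncertain. Every column matched a sample (0 unmatched). Floors of 12 counts cover counting error only.

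The tests used edgeR 4.0.16 in R 4.3.3: filterByExpr (minimum count 10, total 15), TMM factors, and the two-sided quasi-likelihood F test, fitted to the libraries of both groups in a comparison, with Benjamini-Hochberg adjustment over all genes and a threshold of 0.05. The SE of a log2 fold change was the absolute value over the root of F. CPM used TMM-scaled library sizes of all 15 libraries. Coordinates, exon lengths and transcripts came from GENCODE M21. Simulated counts with 200 altered genes were used to test the scripts.

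The members and lists were chosen with earlier results of these data known. The genes planned to be named were the members, Nr5a1, list genes past the threshold (up to 8 per comparison) and the 10 genes most like Slc40a1 (log2 CPM with a prior count of 2, mean of at least 20 counts). No list gene passed in the quasi-likelihood test. Steap2, Steap3, Hfe, Lcn2, Hmox2 and Cybrd1 were named after their values were seen, since other tests called them. Alternatives were DESeq2 1.42.0, its size factors, library totals, the likelihood ratio test, dropping the low-count filter, requiring 1 CPM, fitting all 15 libraries together, a block for the replicate number, summing rows of a symbol, and leaving out each library. Summing near-identical copies and dividing counts by 4 were added after seeing the data.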

Additional observations from a re-analysis of the deposited data

Results flagged for a closer look

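Within a group of 4 libraries, 2 of 30 tests (10 genes in 3 groups) found a library far from the others by Dixon's criterion, where chance gives about 1 in 20. For Tfrc, PE+/− male replicate 1 had 9.30 CPM and the other PE+/− males 19.2 to 20.6 CPM (gap over range 0.879). For Heph, PE+/− male replicate 4 had 2.46 CPM and the others 1.81 to 1.90 CPM (0.855), still under all PE−/− males. Both libraries enter the male values of these genes, which carry no test, and the causes were not tested. Without the first library the Tfrc change in males was −0.096 in place of 0.11, and without the second the Heph change was 0.78 in place of 0.67.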

How the results depend on the processing

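Deviations from group means correlated weakly between same-numbered libraries (−0.107 to 0.159). Replicate 2 had the most counts in every group (22411476 and 25391417 in PE+/− and PE−/− males, 23451887 and 30238443 in females). Whether the replicate numbers link libraries is therefore not known. With the replicate block 0 members were called in any comparison, Slc40a1 in males included (log2 fold change −1.49 and 0 calls in place of 1, from the values that chose it). Over all genes the calls went from 189 to 1 in females and from 23, 115 and 9 to 0 in males, PE+/− and PE−/−. In females the members called were 2 in DESeq2, 1 in the likelihood ratio test and 1 in the fit on all 15 libraries, in place of 0, the last with a spread taken in part from the male libraries that chose Slc40a1. In PE+/− by sex DESeq2 called 1 in place of 0. The further iron genes called, 0 in each comparison, came to 5 (DESeq2), 2 (likelihood ratio test) and 1 (all 15 libraries, Hfe) in females, to 2 (DESeq2) and 1 (likelihood ratio test, Steap3) in males, and to 2 (DESeq2), 1 (likelihood ratio test) and 1 (all 15 libraries) between PE+/− females and males, where the single gene was Steap2. Leaving out each library gave 0 to 0 members called in females, and further iron genes at 0 to 1 in females (Hfe without PE+/− female replicate 1, Steap3 without PE+/− female replicate 3) and 0 to 1 between PE+/− females and males (Steap2 without PE+/− male replicate 2). Over all genes DESeq2 gave 1431, 203, 899 and 41 calls in females, males, PE+/− and PE−/−, the likelihood ratio test 710, 138, 422 and 33, and the fit on all 15 libraries 714, 37 and 421 in the first 3. With no low-count filter there were 123 in females and 66 in PE+/−. Leaving out single libraries gave 29 to 244, 11 to 35, 34 to 113 and 7 to 27 calls. The difference of the Slc40a1 changes between the sexes ran from 0.128 to 0.534 in fits without a library, 0.425 with the replicate block.

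Among the log2 values of the members, directions turned for some that were not called or not tested. Over the fits that leave out a library these were, in males, Trf (−1.121 to 0.291), Tfrc (−0.137 to 0.239), Slc11a2 (−0.185 to 0.09) and Ftl1 (−0.123 to 0.092), then Fth1 in females (−0.449 to 0.096, above 0 without PE−/− female replicate 3), Ireb2 between PE+/− females and males (−0.038 to 0.143, below 0 without PE+/− male replicate 4 or PE+/− female replicate 2), and, between PE−/− females and males, Ftl1 (−0.089 to 0.082), Fth1 (−0.373 to 0.16), Tfrc (−0.107 to 0.268), Heph (−0.151 to 0.035), Ireb2 (−0.071 to 0.126) and Cp (−0.356 to 0.21). Between PE−/− females and males Ftl1 also came to −0.0021 with library totals and −0.065 with copies summed, and Fth1 to 0.00023 with the replicate block. In males other settings took Trf up to 0.524, Slc11a2 up to 0.026 and Ftl1 up to 0.031. The causes were not tested.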
